A study of Arabidopsis thaliana with 12 samples.

Results

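The genes described here are the Arabidopsis thaliana transcripts whose level was far higher after dehydration in both the mutant siz1-3 and the wild type Col-0. They were selected on the array values themselves. With the level taken as log2(signal + 16), a probe set (a group of short probes for a transcript on the array) was a member when the mean of 3 dehydrated arrays exceeded the mean of 3 control arrays by at least 3 in siz1-3 and by at least 3 in Col-0. A difference of 3 is 8-fold on that scale. Of the 22746 probe sets measured, 142 met this threshold, and 7 of them were left out by name because the choice of members names them: UGT76E11, UGT76E12, PUB19, LEA4-5, AT3G02480, AT2G30830 and AT2G38240. LTI30 and AT4G38410 are also named for leaving out and were not among the 142. The remaining 135 probe sets are the members.

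The study used 12 ATH1 GeneChip arrays, with 3 in each of 4 groups: siz1-3 after 2 h of dehydration, siz1-3 under control conditions, Col-0 after 2 h of dehydration and Col-0 under control conditions. The SIZ1 protein is a SUMO E3 ligase: it joins SUMO, a small modifier protein, to target proteins. The siz1-3 mutant carries an insertion in this gene and is the only siz1 allele among these samples. The plants were 3 weeks old, with 1 Col-0 control array labelled as 21 days. No tissue is named in the labels. They also leave out whether replicates came from separately grown plants. The p-values set differences between group means against the scatter within groups, and that scatter may be technical. They may therefore not extend to other plants.

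When a plant loses water, the hormone abscisic acid accumulates, and through its receptors, protein phosphatases and kinases it leads to closure of stomata and to new transcription by bZIP factors. Factors of the AP2/ERF, zinc finger and other families act partly apart from that hormone, and the genes they switch on encode protective proteins, transporters and enzymes of metabolism. Jasmonic acid is also made in dehydrated and wounded leaves. Its level is limited by enzymes that oxidise, methylate or conjugate it.

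The 135 members include 56 probe sets that the annotation pairs with exactly 1 gene each, 1 paired with several genes and 78 that it does not list. Of the 56 genes, 5 carry a symbol, JMT, BSMT1, JRG21, SWEET4 and IRX15-L, and 51 carry only a locus code. A probe set with exactly 1 gene was less common among members, at 41.5%, than among all probe sets, at 59.4%. Names are given for the 56 only, and a gene that the choice of members leaves out could not be recognised among the unlisted ones. Where a role is given for a gene with a locus code alone, it is general knowledge of the protein family and not a result.

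The arrays had been scaled alike, with a trimmed mean of 250.02 to 250.03 on each. Across probe sets, r was 0.98 to 0.991 within a group and 0.857 to 0.959 between groups. For actin, a control of RNA quality, the ratio of 3' to 5' signal was 15.01 to 18.4 in dehydrated siz1-3, 8.29 to 19.0 in control siz1-3, 12.9 to 20.2 in dehydrated Col-0 and 8.89 to 15.5 in control Col-0, and for the second control, GAPDH, it was 1.08 to 1.74 over all arrays. Their part in the results was not tested. The brighter probe set of SIZ1 read 81.5 to 101 in dehydrated siz1-3 and 160 to 177 in control siz1-3, against 360 to 465 in dehydrated Col-0 and 286 to 450 in control Col-0. A dimmer SIZ1 probe set went the opposite way, at 60.3 to 111 over the 6 siz1-3 arrays and 2.85 to 34.2 over the 6 Col-0 arrays. Of the green-leaf markers, RCA (Rubisco activase) had group mean signals of 4433 to 8422 and LHCB4.1 (a light-harvesting protein) of 7750 to 12843. The root-hair marker EXPA7 had group means of 4.92 to 9.94, with single arrays up to 27.2, and the root marker PYK10 had group means of 477 to 964. In whole plants or organs such as these, fewer cells of a type and less RNA per cell cannot be told apart.

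Before dehydration the members lay around the middle of the array's range in both genotypes, and after it most were bright. The median member signal was 1709 in dehydrated siz1-3 (range 198 to 8664), against 64.8 in control siz1-3 (1.37 to 969). In Col-0 it was 1737 after dehydration (176 to 8641), against 87.6 under control conditions (2.32 to 807). Over all probe sets the medians were 65.7 in dehydrated and 87.3 in control siz1-3, and 72.0 in dehydrated and 86.0 in control Col-0. A typical member thus moved within an array to the 95.5th percentile of all probe sets in either genotype after dehydration, against the 44.5th in control siz1-3 and the 50.3rd in control Col-0. After dehydration 101 members in siz1-3 and 106 in Col-0 were among the brightest 10% of probe sets, and 1 in each genotype was so under control conditions. No detection calls were used, so a low signal cannot be told from background. In control plants the group mean was under 32 for 42 members in siz1-3, for 26 in Col-0 and for 23 in both.

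**Figure D1:**
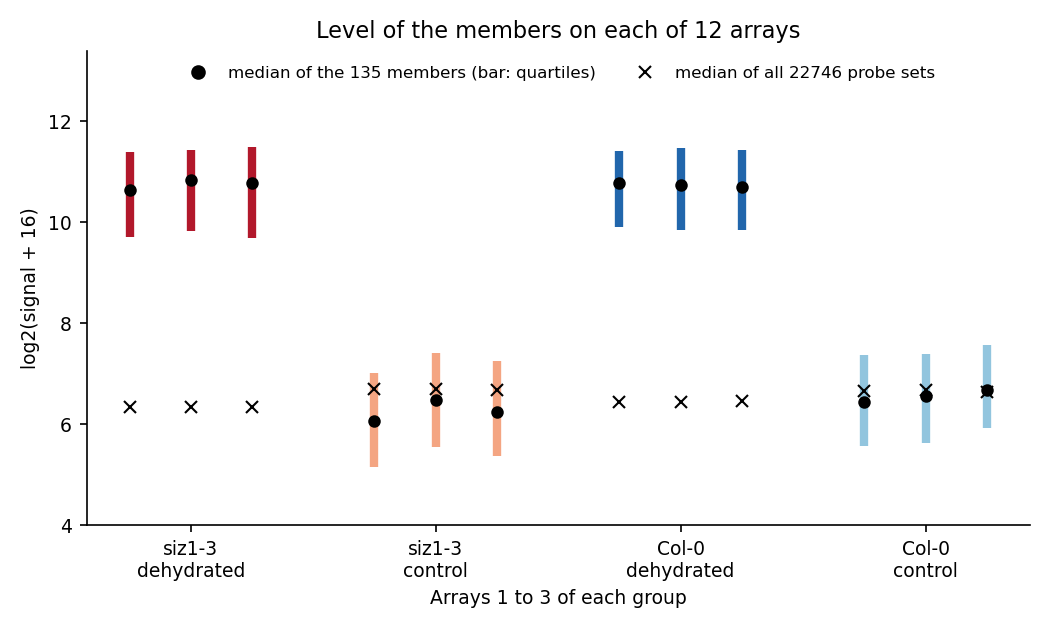
Level of the members on each array as log2(signal + 16): the dot is the median of the 135 members, the bar spans their quartiles and the cross is the median of all 22746 probe sets. The member medians are 10.6 to 10.8 on the dehydrated siz1-3 arrays and 6.07 to 6.47 on the control siz1-3 arrays, and 10.7 to 10.8 on the dehydrated Col-0 arrays and 6.45 to 6.69 on the control Col-0 arrays.

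The size of the dehydration change, which chose the members and is given as a description, ran from 3.09 to 6.84 in siz1-3 and from 3.02 to 6.30 in Col-0 on the log2 scale. Its median was 4.12 in siz1-3 and 3.89 in Col-0, beside -0.16 and -0.09 over all probe sets. A change of at least 4 was reached by 75 members in siz1-3, by 59 in Col-0 and by 48 in both, and a change of at least 5 by 29, 15 and 10 of them. Of all probe sets, 1.1% changed by 3 or more in siz1-3 and 0.827% in Col-0, and nothing is read from the members' count beside these, since the threshold is the rule. A further 108 probe sets passed the threshold in siz1-3 only and 46 in Col-0 only. The pseudocount of 16 compresses the change of members that were dim in control plants. The 23 members under 32 in both controls had median changes of 4.80 in siz1-3 and 4.52 in Col-0, against 4.03 and 3.81 in the other members. A low control signal itself makes the change larger, so nothing is read from this contrast.

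The threshold cuts a continuous range. Just inside it lay AT5G05600, AT4G12000 and AT1G76640, whose smaller change was 3.04, 3.06 and 3.06. AT4G12000 changed by 3.79 in siz1-3 and 3.06 in Col-0, and AT1G76640, named CML39 in the reference table and encoding a calmodulin-like calcium-binding protein, by 3.37 and 3.06. Just outside lay AT2G34810, an oxidoreductase of the berberine bridge enzyme family, with 3.49 in siz1-3 and 2.9986 in Col-0. ALDH7B4, an aldehyde dehydrogenase, had 2.98 in siz1-3 and 3.02 in Col-0, and the lectin gene EULS3 had 2.98 and 3.08.

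**Figure D2:**
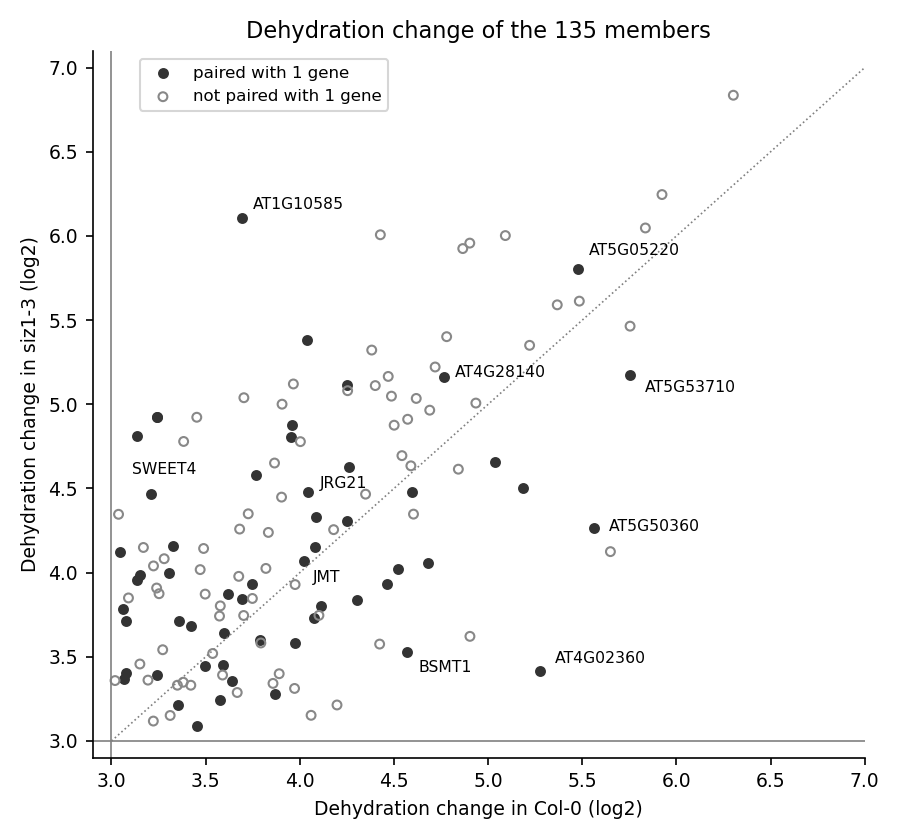
Dehydration change of each of the 135 members, in siz1-3 on the vertical axis and in Col-0 on the horizontal axis (log2). All points lie above 3 on both axes because the members were chosen so, and 91 of them lie above the diagonal, with a larger change in siz1-3.

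The largest change of all belonged to a probe set with no gene in the annotation, 264415_at. Its signal was 7176, 7124 and 7496 in dehydrated siz1-3, against 21.9, 149 and 25.4 in control siz1-3. In Col-0 it was 7003, 7277 and 6436 after dehydration, against 60.3, 62.6 and 96.1 under control conditions. All dehydrated arrays were far above all control arrays, and 1 control siz1-3 array stood above the other control arrays. The changes were 6.84 in siz1-3 and 6.30 in Col-0.

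Among members with a gene, AT5G05220 had the largest mean change over both genotypes. Its signal was 2270, 2350 and 2298 in dehydrated siz1-3, against 15.4, 43.5 and 22.3 in control siz1-3. In dehydrated Col-0 it was 1650, 1727 and 1708, against 28.7, 9.29 and 34.3 in control Col-0. The control arrays of the genotypes overlapped, and after dehydration the siz1-3 arrays were the higher. The changes were 5.81 ± 0.25 (SE of the model fitted to all arrays, as for every change below) in siz1-3 and 5.48 ± 0.25 in Col-0.

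AT5G53710 followed, with 1278, 1600 and 1495 in dehydrated siz1-3, against 17.5, 30.1 and 27.5 in control siz1-3. In Col-0 it read 2032, 2235 and 2127 after dehydration, against 23.9, 20.8 and 26.8 under control conditions. Here it was the Col-0 arrays that were higher after dehydration, with overlapping controls. The changes were 5.17 ± 0.14 in siz1-3 and 5.75 ± 0.14 in Col-0.

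Of the named members, 4 are known to encode transcription factors, and of these AT4G28140 and AT1G10585 were among the 10 largest mean changes. AT4G28140 encodes a factor of the AP2/ERF family, which binds DNA through the AP2 domain. It reached 5570, 5596 and 6143 in dehydrated siz1-3, against 132, 197 and 116 in control siz1-3, and 4094, 4172 and 3000 in dehydrated Col-0, against 122, 122 and 119.8 in control Col-0. It was already well above the dimmest members in control plants. Its changes were 5.16 ± 0.18 in siz1-3 and 4.77 ± 0.18 in Col-0.

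AT1G10585, a member of the basic helix-loop-helix family of factors, read 1754, 2022 and 1951 in dehydrated siz1-3, against 1.91, 18.3 and 19.2 in control siz1-3. It read 637, 646 and 594 in dehydrated Col-0, against 26.6, 24.8 and 54.2 in control Col-0. The siz1-3 arrays were higher than all Col-0 arrays after dehydration and lower than all of them under control conditions. Its changes, 6.11 ± 0.25 in siz1-3 and 3.69 ± 0.25 in Col-0, differed by 2.41 ± 0.36, the largest difference towards siz1-3 among the members.

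AT3G53600 encodes a zinc finger factor of the C2H2 type. It read 515, 662 and 551 in dehydrated siz1-3, against 0.367, 8.99 and 1.91 in control siz1-3, and 188, 178 and 162 in dehydrated Col-0, against 3.29, 9.64 and 0.712 in control Col-0. All 6 control signals were under 10. The changes were 4.92 ± 0.19 in siz1-3 and 3.24 ± 0.19 in Col-0.

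AT1G64380 is another AP2/ERF factor gene. It read 1118, 1033 and 985 in dehydrated siz1-3, against 43.6, 54.9 and 55.3 in control siz1-3, and 1905, 1767 and 1437 in dehydrated Col-0, against 184, 139.5 and 211 in control Col-0. In either condition the 3 siz1-3 arrays were below the 3 Col-0 arrays. The changes were 3.98 ± 0.16 in siz1-3 and 3.15 ± 0.16 in Col-0.

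Genes for jasmonate enzymes were among the members. Of 22 jasmonate genes listed, the annotation pairs 4 with a probe set of their own. Of these 4, JRG21, AT5G05600 and JMT were members. Of all 13513 probe sets paired with 1 gene, 56 were members. The list was made with earlier results of these data known, so nothing is read from this count. The others of the 22 may lie among the unlisted probe sets. JRG21 (also called JOX3) and AT5G05600 (JOX2) encode oxygenases that hydroxylate jasmonic acid and so lower the active hormone. JRG21 read 1661, 2137 and 2255 in dehydrated siz1-3, against 49.7, 88.4 and 91.1 in control siz1-3. It read 2063, 1553 and 2708 in dehydrated Col-0, against 61.0, 217 and 93.9 in control Col-0. The genotypes overlapped in both conditions, and 1 Col-0 control array was well above the other 2. The changes of JRG21 were 4.48 ± 0.35 in siz1-3 and 4.05 ± 0.35 in Col-0.

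AT5G05600 was brighter, at 4302, 4537 and 4585 in dehydrated siz1-3, against 135, 353 and 289 in control siz1-3. In Col-0 it read 5235, 5422 and 5219 after dehydration, against 417, 908 and 651 under control conditions. Its 3 siz1-3 arrays were below the 3 Col-0 arrays in either condition, and in control plants by more. Its changes were 4.12 ± 0.30 in siz1-3 and 3.04 ± 0.30 in Col-0.

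JMT encodes jasmonic acid carboxyl methyltransferase, which makes methyl jasmonate. It read 437, 416 and 438 in dehydrated siz1-3, against 8.79, 26.7 and 1.88 in control siz1-3, and 1017, 1130.0 and 881 in dehydrated Col-0, against 23.5, 59.3 and 67.4 in control Col-0. The dehydrated siz1-3 arrays were the lower, and the control arrays of the genotypes overlapped. With the pseudocount used, the changes of JMT were close, 4.07 ± 0.31 in siz1-3 and 4.02 ± 0.31 in Col-0, differing by 0.05 ± 0.43. The control signals of JMT were low, so both changes depend on the pseudocount and nothing is read from their closeness.

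BSMT1 encodes a methyltransferase of the same family that acts on benzoic and salicylic acid. Its signal was 225, 310 and 283 in dehydrated siz1-3, against 5.58, 19.9 and 3.64 in control siz1-3, and 765, 915 and 881 in dehydrated Col-0, against 6.79, 20.9 and 41.9 in control Col-0. After dehydration each siz1-3 array was below each Col-0 array, while the controls overlapped. The changes of BSMT1 were 3.53 ± 0.30 in siz1-3 and 4.57 ± 0.30 in Col-0.

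SWEET4 encodes a sugar transporter of the plasma membrane. It read 1302, 1368 and 1343 in dehydrated siz1-3, against 49.5, 40.1 and 46.3 in control siz1-3. In Col-0 it read 2026, 1535 and 1650 after dehydration, against 159, 186 and 173 under control conditions. The genotypes did not overlap in either condition, and were further apart in control plants. The changes were 4.47 ± 0.12 in siz1-3 and 3.21 ± 0.12 in Col-0.

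IRX15-L, which takes part in the synthesis of the cell wall polysaccharide xylan, changed by 3.41 ± 0.15 in siz1-3 and 3.08 ± 0.15 in Col-0. Its signal was 559, 476 and 494 in dehydrated siz1-3, against 45.2, 31.6 and 25.6 in control siz1-3, and 433, 476 and 448 in dehydrated Col-0, against 45.1, 34.2 and 39.5 in control Col-0. Arrays of the genotypes overlapped or touched in both conditions.

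**Figure D3:**
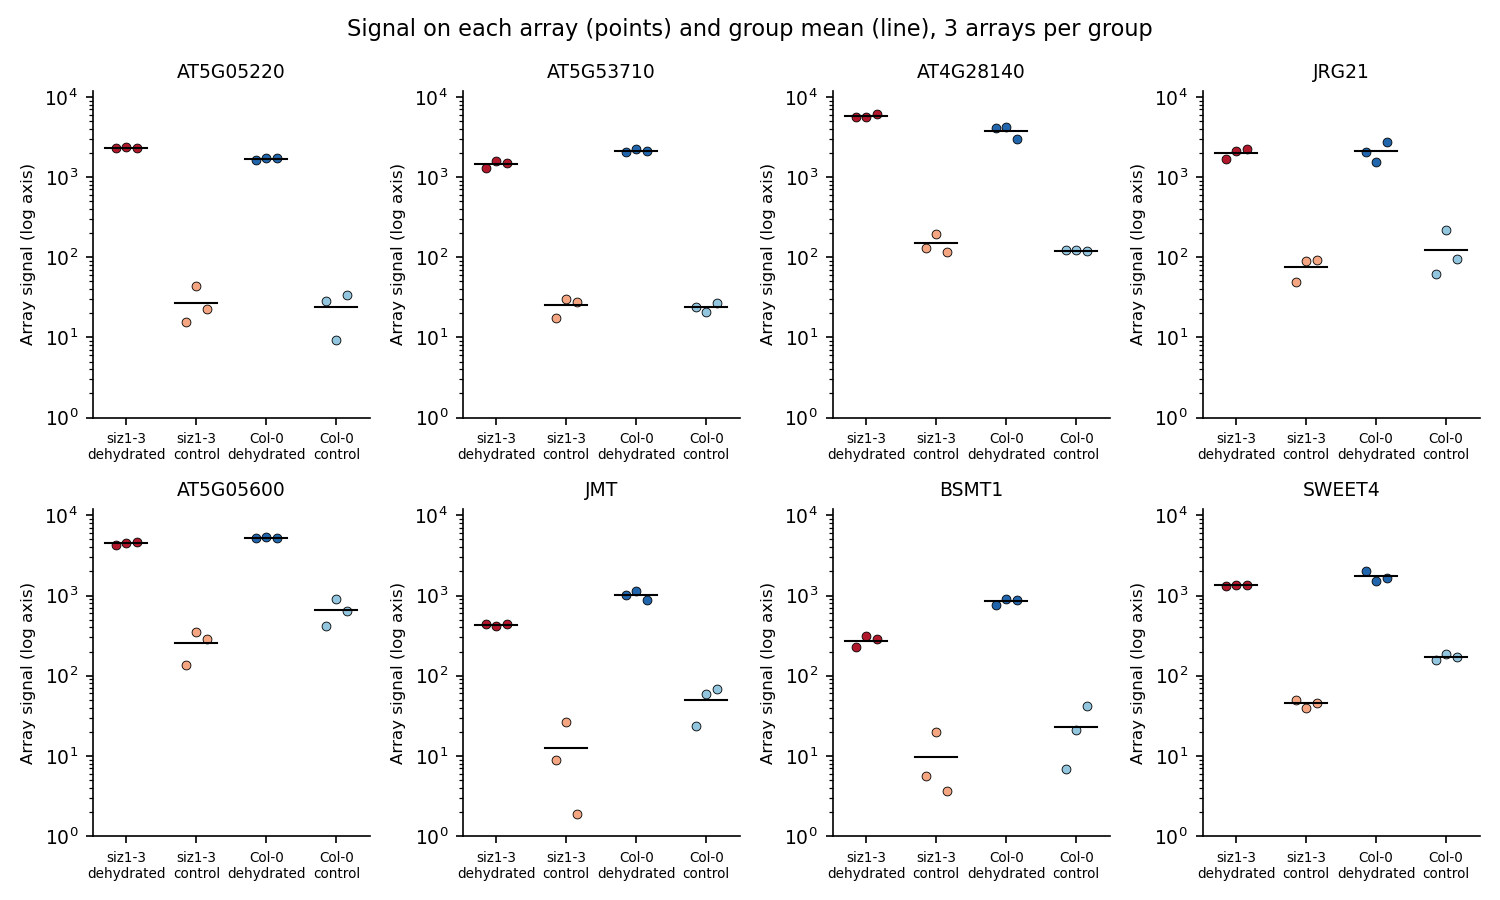
Signal of 8 members on each array (points, log axis) with the group mean as a line, 3 arrays per group, in the order siz1-3 dehydrated, siz1-3 control, Col-0 dehydrated and Col-0 control. The dehydrated siz1-3 points lie below the dehydrated Col-0 points for AT5G05600, JMT, BSMT1 and SWEET4, and overlap them for JRG21.

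Genes for signalling proteins were also among the largest changes. AT1G49450, encoding a WD40 repeat protein, read 769, 940.2 and 751 in dehydrated siz1-3, against 14.1, 27.9 and 11.2 in control siz1-3, and 1686, 1772 and 1664 in dehydrated Col-0, against 29.7, 27.7 and 56.8 in control Col-0. The dehydrated siz1-3 arrays were well below the dehydrated Col-0 arrays. The changes were 4.66 ± 0.21 in siz1-3 and 5.03 ± 0.21 in Col-0. AT5G24080, of the protein kinase family, had 452, 496 and 494 in dehydrated siz1-3, against 10.1, 0.837 and 7.89 in control siz1-3, and 621, 864 and 603 in dehydrated Col-0, against 3.35, 5.91 and 0.947 in control Col-0. None of the 6 control signals was above 10.1, and its changes were 4.50 ± 0.18 in siz1-3 and 5.19 ± 0.18 in Col-0.

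Genes with locus codes alone made up the rest of the largest mean changes. AT5G50360 read 587, 512 and 475 in dehydrated siz1-3, against 20.0, 16.7 and 2.58 in control siz1-3, and 1294, 1086 and 1059 in dehydrated Col-0, against 7.45, 5.09 and 13.7 in control Col-0. The dehydrated siz1-3 signals were below every dehydrated Col-0 signal, and the changes were 4.27 ± 0.22 in siz1-3 and 5.56 ± 0.22 in Col-0. AT2G47950 showed the opposite order after dehydration, with 1465, 1595 and 1367 in siz1-3 and 597, 459 and 564 in Col-0. Its controls overlapped, at 10.1, 29.8 and 21.96 in siz1-3 and 12.0, 20.9 and 21.0 in Col-0, and its changes were 5.38 ± 0.20 in siz1-3 and 4.04 ± 0.20 in Col-0.

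AT3G43250 had 739, 880 and 737 in dehydrated siz1-3, against 13.9, 7.02 and 1.90 in control siz1-3, and 346, 371 and 313 in dehydrated Col-0, against 2.44, 1.83 and 4.31 in control Col-0. It too was higher in siz1-3 after dehydration, with changes of 5.11 ± 0.17 in siz1-3 and 4.25 ± 0.17 in Col-0. AT3G43270, encoding a pectin methylesterase that acts on the wall polymer pectin, is a near neighbour, with 1 protein-coding gene between the pair in the TAIR10.1 annotation. Its changes were 3.84 in siz1-3 and 3.70 in Col-0. AT3G56260, with 1377 ± 62.7 in dehydrated and 47.4 ± 13.996 in control siz1-3, and 1827 ± 118 in dehydrated and 61.2 ± 16.2 in control Col-0 (mean ± SD, n = 3), changed by 4.48 ± 0.18 in siz1-3 and 4.60 ± 0.18 in Col-0.

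The members' changes were also set side by side between the genotypes. The change in siz1-3 minus that in Col-0 was within 1 on the log2 scale for 114 of the 135, at least 1 for 16 and at most -1 for 5, with a median of 0.26, beside -0.08 over all probe sets. It was positive for 91 members and negative for 44. The rule asks for at least 3 in both genotypes, which favours similar changes. It left out the 108 probe sets that passed in siz1-3 only and the 46 in Col-0 only. Counts over all probe sets are not given, so nothing is read from the members' counts. These differences between the changes share their arrays with the values that chose the members, so they are descriptions. Besides AT1G10585, the most positive were AT1G07590 (4.92 ± 0.15 in siz1-3 and 3.24 ± 0.15 in Col-0), AT3G53600 and AT3G28600, a gene of the AAA-type ATPase family with 4.81 ± 0.23 in siz1-3 and 3.14 ± 0.23 in Col-0. AT1G07590 read 1566, 1866 and 1736 in dehydrated siz1-3 and 536, 554 and 388 in dehydrated Col-0, while in control plants it read 35.1, 37.7 and 52.2 in siz1-3 and 38.6, 35.6 and 37.1 in Col-0. AT3G28600 read 477, 669 and 576 in dehydrated siz1-3 and 245, 159 and 212 in dehydrated Col-0, with control signals of 0.372, 13.6 and 2.66 in siz1-3 and 11.2, 10.96 and 4.86 in Col-0.

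On the other side, AT4G02360 had the most negative difference, -1.86 ± 0.30. It read 826, 792 and 669 in dehydrated siz1-3, against 36.2, 80.6 and 60.2 in control siz1-3, and 2280.5, 1892 and 2550 in dehydrated Col-0, against 45.4, 50.0 and 31.6 in control Col-0. The genotypes were apart after dehydration and overlapped in control plants. Its changes were 3.41 ± 0.21 in siz1-3 and 5.28 ± 0.21 in Col-0. AT5G50360 (-1.29), BSMT1 (-1.04) and AT5G24080 (-0.68) followed among the members with 1 gene.

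The members' level was also tested between the genotypes with a contrast that is not part of the rule. The average genotype difference, siz1-3 minus Col-0 taken over dehydrated and control plants together, is orthogonal to both dehydration changes when the errors of the arrays are independent and of equal size. It was tested with limma, a linear model over all 22746 probe sets, and called at a Benjamini-Hochberg adjusted p under 0.05. Of the 135 members, 25 (18.5%) were called higher in siz1-3, beside 13.5% of all probe sets, and 44 (32.6%) were called lower, beside 20.1% of all probe sets. The other 66 were not called. After dehydration the members were brighter than most probe sets and had a smaller median replicate SD than all probe sets. In control plants their median SD was larger. The part of brightness and spread in these shares was not tested. With unequal errors the average is no longer free of the selection. A rule that asks for large changes can then favour low control signals. Its part in these calls was not tested either. The median over all 135 members was -0.15, against -0.07 over all probe sets. Of the called members, 7 were higher by at least 1 on the log2 scale and 8 lower by at least 1.

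Among the members with 1 gene that were called higher in siz1-3, AT1G68620, a carboxylesterase gene, had the largest difference, 1.26 ± 0.13 (adjusted p = 7.48e-06). It read 3059, 3520.0 and 3378 in dehydrated siz1-3 and 1477, 1165 and 1850 in dehydrated Col-0, and in control plants 201, 289 and 299 in siz1-3 and 89.5, 98.5 and 87.2 in Col-0. No siz1-3 array overlapped a Col-0 array of the same condition. AT1G05340, which encodes a small cysteine-rich membrane peptide, was higher by 1.08 ± 0.09 (adjusted p = 1.31e-06). It read 6294, 7282 and 7583 in dehydrated siz1-3 and 3571, 4055 and 4333 in dehydrated Col-0, and 387, 477 and 477 in control siz1-3 and 159.7, 167 and 168 in control Col-0. It was one of the brightest members, and again no arrays overlapped.

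Next came AT1G07590 (0.95 ± 0.11, adjusted p = 2.49e-05) and AT5G40540, of the protein kinase family (0.79 ± 0.16, adjusted p = 0.00167). AT5G40540 read 995, 1024 and 995 in dehydrated siz1-3 and 635, 621 and 506 in dehydrated Col-0, against control signals of 92.9, 50.3 and 97.5 in siz1-3 and 36.1, 25.1 and 54.2 in Col-0. AT3G53600 was higher by 0.78 ± 0.13 (adjusted p = 0.000557), a call that was lost with a pseudocount of 1 (adjusted p = 0.37). AT2G47950 was higher by 0.76 ± 0.14 (adjusted p = 0.000969) and AT3G43250 by 0.73 ± 0.12 (adjusted p = 0.000414). AT4G28140 was higher by 0.43 ± 0.12 (adjusted p = 0.0169), and AT3G28600 by 0.58 ± 0.16 (adjusted p = 0.0132), which became 0.855 with a pseudocount of 1. For AT1G07590, AT2G47950 and AT3G53600 the values under control conditions were close, 0.11, 0.08 and -0.06, and those after dehydration were 1.79, 1.43 and 1.62, so nearly all of the average came from the dehydrated plants.

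A larger difference still belonged to a probe set not listed in the annotation. 267567_at was higher in siz1-3 by 2.06 ± 0.13 (adjusted p = 1.04e-07), with 4103, 4328 and 3653 in dehydrated siz1-3 and 691, 634 and 834 in dehydrated Col-0, and 179, 232 and 288 in control siz1-3 and 53.2, 78.8 and 57.1 in control Col-0. This was the most positive average of all 135 members.

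Members lower in siz1-3 included both methyltransferase genes, an oxygenase of jasmonic acid and the sugar transporter. AT2G47780, a protein of the rubber elongation factor family that coats lipid droplets, was lowest of those with 1 gene, at -1.27 ± 0.10 (adjusted p = 8.49e-07). It read 378, 345 and 338 in dehydrated siz1-3 and 1014, 1011 and 1217 in dehydrated Col-0, and 18.9, 20.3 and 27.2 in control siz1-3 and 62.5, 68.4 and 46.9 in control Col-0. In both conditions every siz1-3 array was below every Col-0 array. JMT was lower by a log2 value of -1.21 ± 0.22 (adjusted p = 0.000798), BSMT1 of -1.08 ± 0.21 (adjusted p = 0.00159) and SWEET4 of -0.99 ± 0.09 (adjusted p = 2.64e-06). AT1G64380 was lower at -1.10 ± 0.11 (adjusted p = 7.98e-06).

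The most negative average of all 135 members belonged to another probe set that the annotation does not list. 247600_at was lower at -1.67 ± 0.09 (adjusted p = 3.93e-08), with 502, 397 and 457 in dehydrated siz1-3 and 2033, 2001 and 2197 in dehydrated Col-0, and 37.8, 37.6 and 27.8 in control siz1-3 and 87.2, 99.7 and 108 in control Col-0. The genotypes did not overlap in either condition.

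AT2G25625 was lower at -0.97 ± 0.17 (adjusted p = 0.00081), with 432, 297 and 389 in dehydrated siz1-3 and 697, 722 and 760.4 in dehydrated Col-0, and 28.5, 7.37 and 12.2 in control siz1-3 and 31.5, 42.2 and 67.1 in control Col-0. AT1G49450 was lower at -0.86 ± 0.15 (adjusted p = 0.000656) and AT5G05600 at -0.78 ± 0.21 (adjusted p = 0.0132). AT4G02360 was lower at -0.60 ± 0.15 (adjusted p = 0.00763), which became 0.0556 with a pseudocount of 1. AT5G50360 was lower at -0.46 ± 0.16 (adjusted p = 0.041), a call lost with a pseudocount of 1 (adjusted p = 0.493) and with array medians subtracted (0.0627). It was also lost without any 1 of 8 arrays, namely each dehydrated Col-0 array, Col-0 control 1 or 3, siz1-3 control 3 and dehydrated siz1-3 2 or 3 (adjusted p = 0.051 to 0.096).

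Several named members were not called, some of them with the largest dehydration changes. JRG21 had -0.26 ± 0.25 (adjusted p = 0.479), and single arrays moved this value: it was -0.03 without Col-0 control array 2, -0.43 without Col-0 control array 1, -0.16 without dehydrated Col-0 array 3 and -0.14 without siz1-3 control array 1. Its difference from the other jasmonate oxygenase gene was not tested. AT5G05220 had 0.28 ± 0.18 (adjusted p = 0.275), AT5G53710 -0.26 ± 0.10 (adjusted p = 0.063) and AT1G10585 0.38 ± 0.18 (adjusted p = 0.134). The value of AT5G05220 was 0.12 without Col-0 control array 2 and 0.15 without siz1-3 control array 2, and it passed with a pseudocount of 64 (adjusted p = 0.0408). AT5G53710 passed without siz1-3 control array 2 (adjusted p = 0.04), with a pseudocount of 64 (0.00519) and in the upper 60% of probe sets (0.0315). AT1G10585 passed without siz1-3 control array 1 (0.0111) or Col-0 control array 3 (0.0366) and with a pseudocount of 64 (0.000114). For AT1G10585 the average joins a value of -0.83 in control plants with one of 1.58 after dehydration. AT5G24080 had -0.16 ± 0.13 (adjusted p = 0.395), AT3G56260 -0.34 ± 0.12 (adjusted p = 0.0524) and IRX15-L 0.00 ± 0.10 (adjusted p = 0.996). The value of AT5G24080 was -0.08 without dehydrated Col-0 array 2 and -0.06 without siz1-3 control array 2. AT3G56260 passed with the replicate block (adjusted p = 0.0304), a pseudocount of 64 (0.0112), quantile normalization (0.0398) and the upper 60% of probe sets (0.023), and without siz1-3 control array 2 (0.0135) or Col-0 control array 1 (0.0102).

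**Figure D4:**
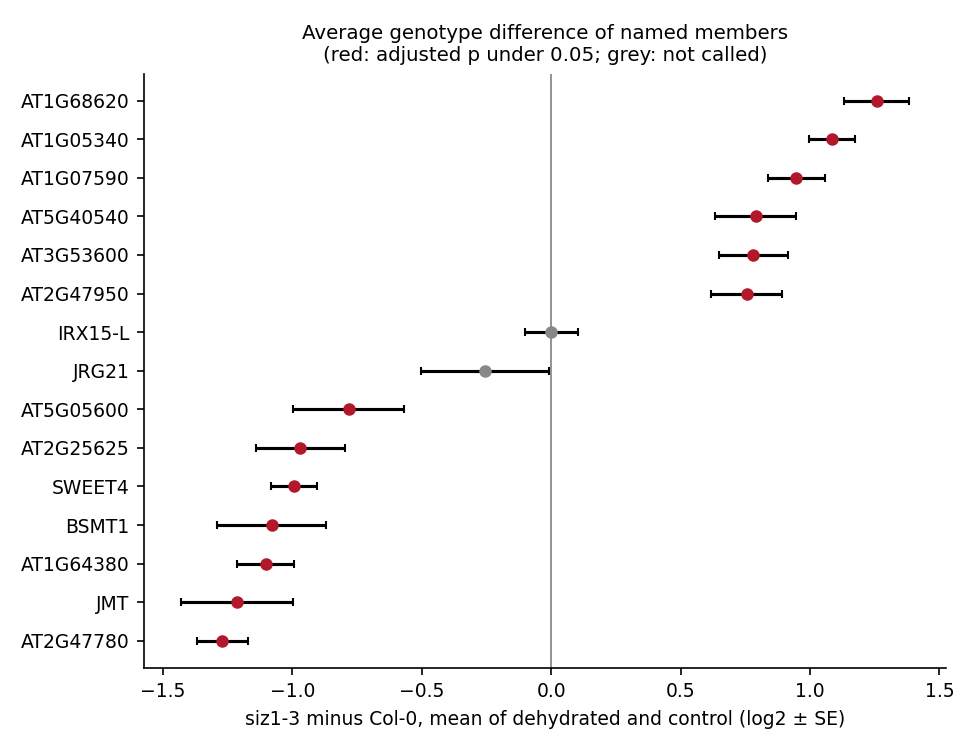
Average genotype difference, siz1-3 minus Col-0 over dehydrated and control plants (log2, bars are SE, 12 arrays), of the members paired with 1 gene that had the largest called differences, a gene symbol or a place in a gene list. AT1G68620 and AT1G05340 lie above 1, AT2G47780, JMT, AT1G64380 and BSMT1 lie below -1, and the grey points, JRG21 and IRX15-L, were not called.

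Split by condition, the members lay more to the siz1-3-lower side in control plants than after dehydration, again as a description. Under control conditions siz1-3 minus Col-0 had a median of -0.28, with 98 members negative and 37 positive, beside a median of -0.03 over all probe sets. After dehydration the median was -0.02, with 70 members negative and 65 positive, beside -0.10 over all. The pair of values was negative in both conditions for 59 members and positive in both for 26. For 39 members siz1-3 was the lower in control plants and the higher after dehydration, and for 11 the reverse. Among the 25 called higher, 22 had the same sign in both conditions, and among the 44 called lower, 37 did. The call was made on the mean of these 2 values, which favours agreeing signs, so nothing is read from these counts. SWEET4 (-1.62 in control plants, -0.36 after dehydration), AT1G64380 (-1.52 and -0.69) and AT5G05600 (-1.32 and -0.24) had most of their deficit before dehydration. BSMT1 (-0.56 and -1.60) and AT2G47780 (-0.98 and -1.57) had the larger deficit after it. With the pseudocount used, JMT had about the same in both (-1.24 and -1.19). Its control signals were low, so its value in control plants depends on the pseudocount. The average of JMT was -1.78 with a pseudocount of 1 and -0.84 with a pseudocount of 64. Nothing is therefore read from the equal values of JMT.

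**Figure D5:**
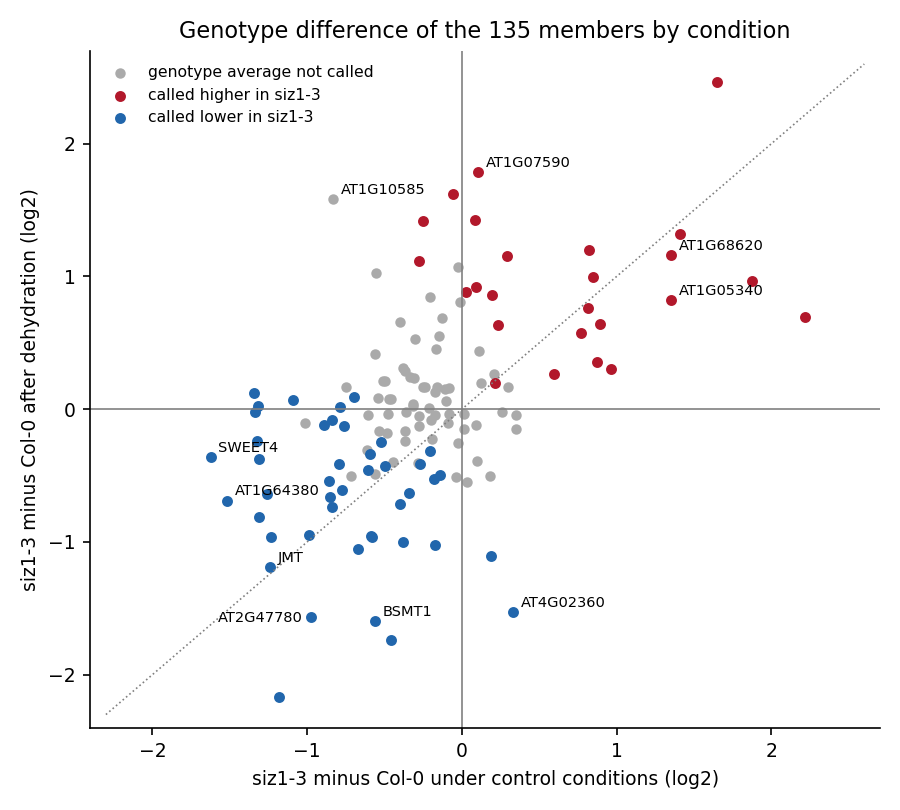
Genotype difference of each of the 135 members after dehydration (vertical axis) and under control conditions (horizontal axis), siz1-3 minus Col-0 on the log2 scale, coloured by the call of the average difference. SWEET4 and AT1G64380 lie far left, BSMT1 and AT4G02360 lie low, and AT1G10585 is left of 0 and high.

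The replicate spread of the members differed between conditions. The median SD of log2(signal + 16) was 0.09 in dehydrated and 0.30 in control siz1-3, and 0.14 in dehydrated and 0.24 in control Col-0. Over all probe sets it was 0.14 in dehydrated and 0.18 in control siz1-3, and 0.19 in dehydrated and 0.17 in control Col-0. The model uses 1 error per probe set for all groups, so for a typical member the stated error is too large for the dehydrated plants and too small for the control plants. The equal errors assumed in the test of the average difference were thus not met for a typical member, and that test is not free of the selection.

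The other 28 members with 1 gene, AT3G43270 among them, changed by 3.09 to 4.88 in siz1-3 and by 3.08 to 4.68 in Col-0. Their average genotype difference was between -0.77 and 0.51. Of them, 3 were called higher in siz1-3, 10 lower and 15 neither, beside 13.5% of all probe sets called higher and 20.1% lower. The members with the largest called differences were named above and are not among these 28, so nothing is read from the counts. The values that follow were chosen from these 28 after they were seen, for their known roles. Transporter genes were represented by AT5G52050, named DTX50 in the reference table and known to export abscisic acid (3.96 in siz1-3, 3.14 in Col-0). AT1G66760, of the same family of efflux carriers, had 3.93 and 3.74, and AT2G41190, of an amino acid transporter family, 4.63 and 4.26. AT1G69480, related to the phosphate exporter PHO1, had 4.88 in siz1-3 and 3.96 in Col-0. Of these transporters AT1G66760 was called lower in siz1-3, at -0.76 ± 0.17 (adjusted p = 0.0035), and the others were not called.

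Enzyme genes in this group included AT3G48460, a lipase of the GDSL family, which had the lowest average difference of the 28, at -0.77 ± 0.11 (adjusted p = 0.000152), and changes of 3.09 in siz1-3 and 3.45 in Col-0. AT1G06620, of the 2-oxoglutarate-dependent dioxygenases, had changes of 3.71 in siz1-3 and 3.36 in Col-0, and AT5G04250, a cysteine protease of the OTU family, 4.33 and 4.09. The pectin methylesterase AT3G43270 was called lower in siz1-3 (-0.53 ± 0.10, adjusted p = 0.00103), as was AT3G05640, a protein phosphatase of the PP2C type, with changes of 3.73 in siz1-3 and 4.07 in Col-0 (-0.35 ± 0.10, adjusted p = 0.0136). AT1G20070 was called higher, at 0.51 ± 0.08 (adjusted p = 0.000295), with changes of 4.16 in siz1-3 and 3.33 in Col-0.

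The wider set of water deficit genes could be compared only in part. Of 138 genes on 10 lists, the annotation pairs 20 with a probe set of their own, and these are called measured here. None of them fell in the lists for abscisic acid synthesis (11 genes), abscisic acid signalling (25) and seed storage (9). The other list genes may be read by the 8730 probe sets that are not listed or the 503 paired with several genes. Some could thus be among the 78 unlisted members. Apart from the 3 jasmonate members, 17 of the 20 measured genes were not members, and for these the dehydration changes were tested by limma. In siz1-3, 6 rose and 9 fell, beside 15.3% of all probe sets that rose and 31.8% that fell. In Col-0, 4 rose and 6 fell, beside 13.5% that rose and 23.5% that fell.

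The cold and drought responsive gene COR47, a dehydrin, rose by 3.08 ± 0.13 in siz1-3 (adjusted p = 2.25e-09) and by 1.39 ± 0.13 in Col-0 (adjusted p = 2.45e-06). It missed membership on the Col-0 side, where its control signal was already 7017, 6317 and 5974, against 1572, 1889 and 1816 in control siz1-3. COR15A, encoding a chloroplast protective protein, rose by 1.69 ± 0.16 in siz1-3 (adjusted p = 2.56e-06) and by 0.60 ± 0.16 in Col-0 (adjusted p = 0.0107). Its relative COR15B had -0.34 ± 0.20 in siz1-3 (adjusted p = 0.203) and -0.05 ± 0.20 in Col-0 (adjusted p = 0.874). ZAT10, a zinc finger repressor, rose by 0.54 ± 0.20 in siz1-3 (adjusted p = 0.0437) and had 0.13 ± 0.20 in Col-0 (adjusted p = 0.68).

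ORA47, an AP2/ERF factor that activates jasmonate synthesis genes, was the 1 not a member among the 4 jasmonate genes paired with a probe set. It rose by 1.28 ± 0.18 in siz1-3 (adjusted p = 8.03e-05) and changed by -3.05 ± 0.18 in Col-0 (adjusted p = 5.41e-08). Its signal was 276, 272 and 221 in dehydrated siz1-3, against 99.3, 111 and 78.8 in control siz1-3, and 185, 182 and 223 in dehydrated Col-0, against 2196, 1323 and 1797 in control Col-0. The control Col-0 arrays stood far above the other 9.

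Of the genes for breakdown of amino acids, PRODH2 (AT5G38710, a proline dehydrogenase) rose by 2.803 ± 0.217 in siz1-3 (adjusted p = 3.99e-07) and by 2.58 ± 0.22 in Col-0 (adjusted p = 1.05e-06). MCCA, of leucine breakdown, rose by 1.70 ± 0.12 in siz1-3 (adjusted p = 1.41e-07) and by 1.12 ± 0.12 in Col-0 (adjusted p = 7.15e-06). IVD, of the same pathway, fell by 0.44 on the log2 scale in siz1-3 (adjusted p = 0.00698) and had -0.02 ± 0.12 in Col-0 (adjusted p = 0.922).

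Of the 9 measured markers of cell types and organs, 8 fell in siz1-3 and 5 in Col-0, and none rose in either. Of all probe sets, 31.8% fell in siz1-3 and 23.5% in Col-0. All 4 measured guard cell lineage genes of 7 listed fell in siz1-3 and 2 fell in Col-0. Of these, MUTE was at signals of 0.451 to 16.5 in siz1-3, and SPCH at 6.41 to 55.6 over all arrays. The guard cell gene AT1G22690 (GC1) fell to 81.2 ± 15.5 in dehydrated siz1-3, against 569.9 ± 50.4 in control siz1-3, and to 108 ± 10.97 in dehydrated Col-0, against 804 ± 107 in control Col-0 (SD, n = 3). Both green-leaf genes fell in both genotypes, RCA by 0.90 in siz1-3 and 0.47 in Col-0 and LHCB4.1 by 0.39 and 0.34, all on the log2 scale. Of 3 measured root genes of 8 listed, 2 fell in siz1-3 and 1 in Col-0. The 1 that fell in both, EXPA18, was dim, at 1.57 to 32.5 over all arrays. With array medians subtracted, 3 of the list genes fell in siz1-3 in place of 9. The part of these shifts in the members' changes was not tested.

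The 56 genes lay on all chromosomes, 16 on chromosome 1, 6 on 2, 11 on 3, 8 on 4 and 15 on 5. Their median gene length in the TAIR10.1 table was 1968.5 bp, against 2112 bp for 12224 measured genes with a length there.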

How the data were processed

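RNA was extracted with TriZOL and labelled by MessageAmp II-Biotin Enhanced, as the labels' protocols say. The deposited values are an intensity per probe set on a linear scale, already scaled by the authors to a common trimmed mean, as the values themselves show. Which software combined the probes was not given in the sources used here. Of 22810 probe sets, 64 controls were left out. In the annotation 13513 probe sets pair with 1 gene, 503 pair with several and 8730 are not listed, and 13436 of the first kind matched the TAIR10.1 gene table. No coordinates or sequences are given.

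Signals were analysed as log2(signal + 16) with no further scaling. limma 3.58.1 in R 4.3.3 fitted 1 mean per group over 12 arrays (8 residual and 4.141 prior degrees of freedom), and p-values were adjusted over all 22746 probe sets. The fit was also run on simulated arrays with the same spread in all groups and no selection on the dehydration change. That run cannot show how the test behaves for the selected members, whose spread differed between conditions. Alternatives were pseudocounts of 1 and 64, quantile normalization, subtraction of array medians, the upper 60% of probe sets, each array left out, thresholds of 2.5 and 3.5 and a replicate block. The promoter motif shares also planned were not computed. Precision is limited by having 3 arrays per group.

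The members and gene lists were chosen with earlier results of these data known. Named are, among members with 1 gene, the 10 largest mean changes, up to 6 called higher and 6 called lower in siz1-3, the 4 most positive and 4 most negative differences between the changes, members of a list or with a symbol, and the 3 nearest the threshold on either side. List genes that are not members are named up to 4 per list. Probe sets without a gene were named after their values were seen.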

Additional observations from a re-analysis of the deposited data

Results flagged for a closer look

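In 4 of the 17 measured list genes that are not members, the dehydration change in siz1-3 differed from that in Col-0. The test was the interaction term of the limma model at an adjusted p under 0.05. The share of all probe sets called by this term is not given, so nothing is read from the count. MCCA was only just under the threshold, and its call under other settings is not given. The change in siz1-3 minus that in Col-0 was 4.33 ± 0.26 for ORA47 (adjusted p = 9.51e-06), 1.69 ± 0.18 for COR47 (adjusted p = 0.000228), 1.09 ± 0.23 for COR15A (adjusted p = 0.012) and 0.58 ± 0.17 for MCCA (adjusted p = 0.0497). COR15A stood at 2775 ± 183 in dehydrated and 865 ± 201 in control siz1-3, and at 12690 ± 1215 in dehydrated and 8371 ± 637 in control Col-0 (SD, n = 3). MCCA stood at 797 ± 33.4 in dehydrated and 236 ± 27.6 in control siz1-3, and at 826 ± 59.8 in dehydrated and 372 ± 25.7 in control Col-0. For COR47, COR15A and MCCA the lower control signal of siz1-3 accompanied its larger change, and for ORA47 the control signal of Col-0 was the highest of the 4 groups.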

How the results depend on the processing

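The counts of members called by genotype stayed within 1.5 times of 25 higher and 44 lower under each of 18 alternatives. Higher calls numbered between 21 (pseudocount of 1) and 32 (pseudocount of 64), lower calls between 38 (pseudocount of 1) and 55 (upper 60% of probe sets), and leaving out single arrays gave 22 to 29 higher and 38 to 50 lower. The number of probe sets past the threshold depended on the scale: 142 became 204 with a pseudocount of 1, 87 with a pseudocount of 64, 186 with array medians subtracted, 236 at a threshold of 2.5 and 88 at 3.5, and 141 to 147 with an array left out. With array medians subtracted, the median member change became 4.47 in siz1-3 and 4.11 in Col-0, against 4.12 and 3.89. Of the genotype averages of the 28 named members under 18 alternatives, 468 kept direction and side of the threshold, 14 newly passed it, 13 no longer did, 10 of them AT5G50360, and 9 turned sign. The sign changes were those of AT1G10585 (-0.0489) and AT5G24080 (0.0153) with a pseudocount of 1, and of IRX15-L, -0.0337 with a pseudocount of 1, -0.0223 after quantile normalization and -0.0757 to 0.0634 with an array left out. None of these 3 genes was called with a pseudocount of 16 and all arrays. Of the 56 dehydration changes of the named members, the larger of the replicate SDs was exceeded by the move in 51 with a pseudocount of 64, 38 with a pseudocount of 1 and 18 with array medians subtracted, and in 0 after quantile normalization or with an array of the same genotype left out. The cause was not tested.

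The replicate numbers did not pair the samples: deviations of same-numbered arrays correlated at -0.04 to 0.13, with 1 of 18 pairs over 0.1. With the replicate block, 23 members were called higher and 49 lower. Promoter motif shares and their shorter window were not run, since no promoter sequences were used here. Control signals near background limit the precision of the changes of dim members.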
